A study of Mus musculus with 6 samples.

Results

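Neuregulins are growth factors with an EGF-like domain, and the ErbB receptors are the tyrosine kinases through which they act. The 6 genes described here are 3 ligand genes, Nrg1, Nrg2 and Nrg3, and 3 receptor genes, Erbb2, Erbb3 and Erbb4. They were chosen by name, as the neuregulins and neuregulin-responsive ErbB receptors, out of the 55401 genes counted. The rule uses no measured value, but the members and the gene lists below were chosen with earlier results of these data known. Bulk RNA sequencing was performed on the dorsal hippocampus of wild-type (WT) mice, littermates of the Ts65Dn line, injected at 4 months of age with 50 µg of antisense oligonucleotide (ASO) into the dorsal dentate gyrus (DG) of each hemisphere and dissected 3 days later. One group of 3 mice received Snhg11-ASO, a gapmer that directs RNase H to exon 5 of the long noncoding RNA Snhg11, and the other group of 3 received Control-ASO, built of the same nucleotides in scrambled order. The sample labels write the groups as WT and Snhg11 KD. The knockdown is a transient one made by an oligonucleotide, no gene was deleted in either group, and tissue outside the injected DG was part of every sample.

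A neuregulin is usually made as a membrane-anchored precursor that proteases cut, and it binds ErbB3 or ErbB4. ErbB2 binds no known ligand and serves as the favoured dimer partner, while ErbB3 has little kinase activity of its own and signals through its partner. In the hippocampus ErbB4 is known mainly from GABAergic interneurons, where it regulates inhibitory synapses, and ErbB3 is known from cells of the oligodendrocyte lineage. Nrg1 is the best known ligand of these receptors at synapses and in myelination, Nrg2 is a related ligand of ErbB3 and ErbB4, and Nrg3 is a neural ligand selective for ErbB4.

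Libraries held 28951250 to 43997537 read pairs counted on genes, and 19969 genes passed the filter on low counts, all 6 members among them. Snhg11, the target, lay at 550.8, 436 and 209 CPM (counts scaled to a common library total after TMM normalization) in the Control-ASO mice. In the Snhg11-ASO mice it was counted at 139, 65.4 and 69.4 CPM, with no overlap. Values are given in the order of replicates 1, 2 and 3 throughout. Ddx3y, a Y-linked gene, was present in every library at 62.5 to 94.7 CPM, and Xist was at most 0.182 CPM. Markers of excitatory hippocampal neurons (Slc17a7, Camk2a, Prox1 and Neurod6 among 12 genes) summed to 2103 to 2862 CPM with Control-ASO and to 2393 to 2736 CPM with Snhg11-ASO. Genes of the choroid plexus, which lies against the hippocampus, ranged from 38.2 to 1921 CPM in sum across libraries of both groups, with overlap. None of 9 astrocyte, 9 microglial, 7 endothelial or 8 choroid plexus markers had an unadjusted p under 0.05. The library of Snhg11-ASO replicate 1 had the lowest sum of microglial markers, 275 CPM against 347 to 761 CPM in all other libraries. Its astrocyte sum was also the lowest (4222 against 4825 to 7161 CPM), while its endothelial sum was the highest. The absence of a p under 0.05 therefore does not show that cell content was even. This library also stood apart in several genes of ErbB signalling given below, so values by sample or values without it are given beside those results. Replicates are separate mice by the study's account, which also states that 1 Snhg11-ASO sample was removed there without naming it. All 6 were kept here.

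The promoters of Erbb4, Nrg3 and Erbb2 are shown first. These are the 3 member genes whose ranges did not overlap between the groups, and they start in DNA of unequal CpG content. Each line gives the 250 bases before the RefSeq start of the gene on GRCm38.p6, read 5′ to 3′ on the strand of the gene, and capitals mark the motif CCAAT. The Erbb4 stretch is chr1:69108060-69108309 on the minus strand, that of Nrg3 chr14:39473089-39473338 on the minus strand, and that of Erbb2 chr11:98412234-98412483 on the plus strand.
Erbb4: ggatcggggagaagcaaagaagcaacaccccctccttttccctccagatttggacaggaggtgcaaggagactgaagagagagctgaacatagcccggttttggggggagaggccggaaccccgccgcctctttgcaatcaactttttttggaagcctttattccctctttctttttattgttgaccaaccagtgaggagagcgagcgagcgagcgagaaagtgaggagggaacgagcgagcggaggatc
Nrg3: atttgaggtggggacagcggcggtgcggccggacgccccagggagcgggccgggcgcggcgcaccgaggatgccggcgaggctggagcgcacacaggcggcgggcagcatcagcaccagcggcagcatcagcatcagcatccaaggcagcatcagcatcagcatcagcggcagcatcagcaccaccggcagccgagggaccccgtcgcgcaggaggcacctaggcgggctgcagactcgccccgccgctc
Erbb2: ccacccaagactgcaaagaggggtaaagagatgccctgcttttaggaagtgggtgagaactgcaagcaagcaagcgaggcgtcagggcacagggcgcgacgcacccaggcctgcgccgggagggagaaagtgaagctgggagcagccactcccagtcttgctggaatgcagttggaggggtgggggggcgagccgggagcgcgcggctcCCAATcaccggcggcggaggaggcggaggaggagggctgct
The Erbb4 stretch held 12 CpG pairs and 54% G and C, the Erbb2 stretch 16 and 66%, and the Nrg3 stretch 27 and 72.4%. Over 32536 promoters of the same length the medians were 6 CpG pairs and 52.4%. The letters CCAAT, searched on both strands, occurred once, in Erbb2, against 33.8% of all promoters. Neither TATAAA (12.3% of all promoters) nor GGGCGG (33.0%) occurred in the 3 stretches. The promoters of Nrg1, Nrg2 and Erbb3 were not analysed here, those of Nrg1 and Erbb3 because the promoter set used had no entry for them.

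Erbb4 and Nrg3 were the most abundant members in the dorsal hippocampus, and both were lower after Snhg11-ASO. Erbb4 stood at 56.8% of its Control-ASO mean and Nrg3 at 72.9%. Erbb2, the scarcest member, stood at 150.3%. Nrg1, Nrg2 and Erbb3 overlapped between the groups. By the quasi-likelihood test of edgeR, Benjamini-Hochberg adjusted, 0 members had an adjusted p under 0.05, as did 0% of all genes tested. An unadjusted p under 0.05 was reached by 2 of the 6 members, Erbb4 and Nrg3, against 8.11% of all genes tested. The ranges of the groups did not overlap for 3 of the 6, lower in Erbb4 and Nrg3 and higher in Erbb2, against 15.4% of all genes tested. DESeq2 called 1 of the 6, Erbb4, against 1.29% of all genes tested. The median log2 fold change of the members was -0.25, and that of all genes tested was 0.01.

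**Figure D1:**
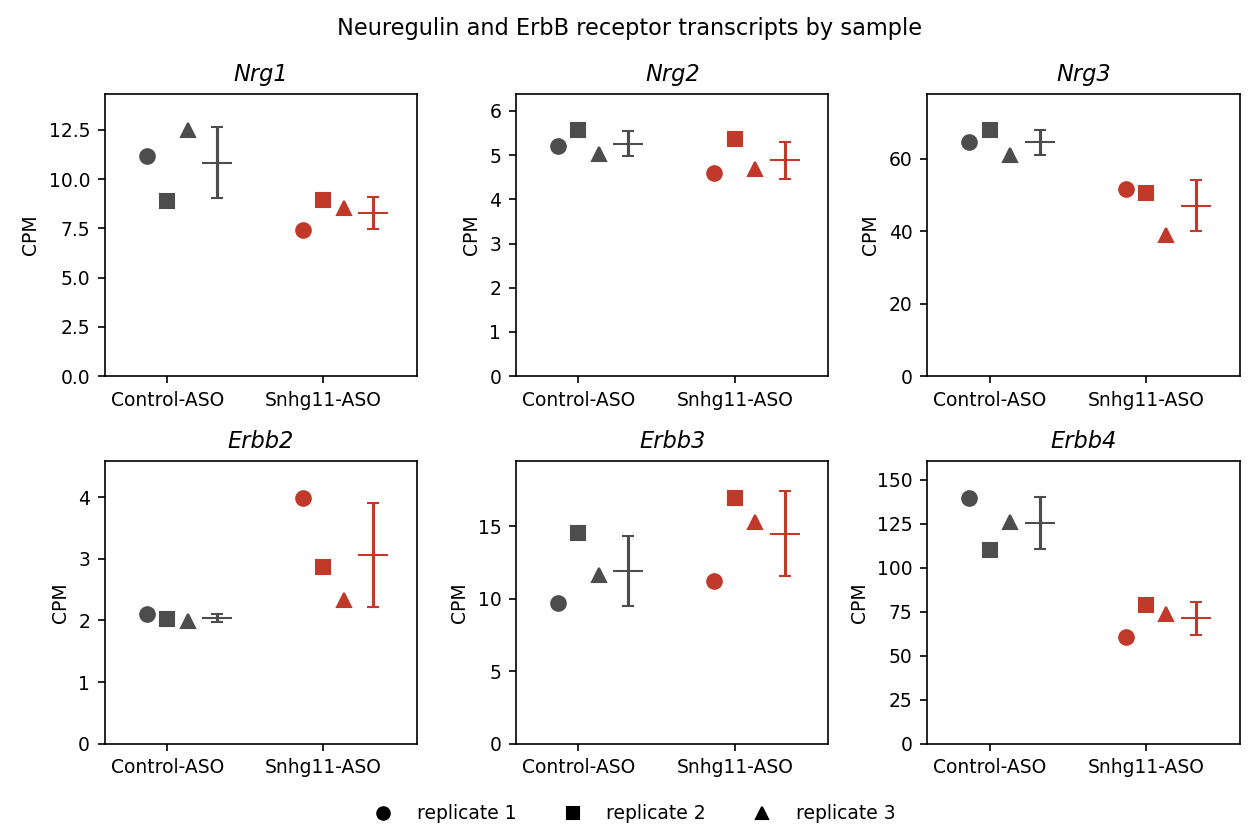
Level of each neuregulin and ErbB gene in CPM (vertical axes, linear and starting at 0) in the 3 Control-ASO and 3 Snhg11-ASO samples, where points are replicates and bars give the mean and SD. Erbb4 and Nrg3 lie lower in all Snhg11-ASO samples, Erbb2 lies higher in all of them, and Nrg1, Nrg2 and Erbb3 overlap.

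Among the ligands, Nrg3 gave the clearest difference. The gene (ENSMUSG00000041014) maps to 38368952 to 39473088 on the minus strand of chromosome 14 (GRCm38, mm10), and its 4 annotated transcripts span 1104 kb with 6.817 kb of merged exons. Nrg3 was counted at 64.7, 67.8 and 61.1 CPM with Control-ASO and at 51.7, 50.7 and 38.8 CPM with Snhg11-ASO. Every Snhg11-ASO sample lay below every Control-ASO sample, and Snhg11-ASO replicate 3 was the lowest. The means were 64.5 ± 3.37 and 47.1 ± 7.14 CPM (SD, n = 3 per group; two-sided exact permutation test, p = 0.1). No lower p can be reached with 3 mice per group. Nrg3 had a log2 fold change of -0.46 with a standard error (SE) of 0.13, an unadjusted p of 0.00974 and an adjusted p of 0.498 in edgeR's quasi-likelihood test. DESeq2 gave Nrg3 an adjusted p of 0.134 with all samples and of 0.0198, 0.18 and 0.276 without Snhg11-ASO replicates 1, 2 and 3 in turn.

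Nrg1 (ENSMUSG00000062991) is annotated with 18 transcripts on the minus strand of chromosome 8, from 31814551 to 32884029, a span of 1069 kb. It was counted at 11.1, 8.89 and 12.5 CPM with Control-ASO and at 7.4, 8.93 and 8.52 CPM with Snhg11-ASO. The groups touched, since Snhg11-ASO replicate 2 lay just above Control-ASO replicate 2. The means were 10.8 ± 1.81 and 8.28 ± 0.79 CPM (SD, n = 3 per group; exact permutation test, p = 0.2). The log2 fold change of Nrg1 was -0.39 (SE 0.17, unadjusted p = 0.0615, adjusted p = 0.631 in edgeR). The counts pool all isoforms of Nrg1, so its membrane-anchored and secreted forms were not told apart.

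Nrg2 (ENSMUSG00000060275; chromosome 18, minus strand, 36017652 to 36197380) had the smallest difference of the 6 genes. It was counted at 5.20, 5.56 and 5.02 CPM with Control-ASO and at 4.59, 5.36 and 4.70 CPM with Snhg11-ASO, and the groups overlapped. Its means were 5.26 ± 0.275 and 4.88 ± 0.418 CPM (SD, n = 3 per group; exact permutation test, p = 0.3), with a log2 fold change of -0.11 (SE 0.17, adjusted p = 0.884 in edgeR). With a sample left out this ranged from -0.18, without Snhg11-ASO replicate 2, to -0.06, without Snhg11-ASO replicate 1. These values rest on 153 to 224 read pairs per sample.

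Erbb4, the receptor of all 3 neuregulins that has both a ligand-binding site and an active kinase, differed most among the receptors by p. The gene (ENSMUSG00000062209) lies on the minus strand of chromosome 1, from 68032186 to 69108059, with 12.355 kb of merged exons in 29 blocks over a span of 1076 kb. It was counted at 139.7, 110.2 and 126 CPM with Control-ASO and at 60.8, 78.9 and 73.8 CPM with Snhg11-ASO. The highest Snhg11-ASO sample lay well below the lowest Control-ASO sample. The means were 125 ± 14.8 and 71.2 ± 9.33 CPM (SD, n = 3 per group; exact permutation test, p = 0.1), which rest on 2319 to 4248 read pairs per sample. The log2 fold change of Erbb4 was -0.82 (SE 0.13, unadjusted p = 0.000505), which ranked 31 among the genes tested, and its adjusted p was 0.308 in edgeR. In DESeq2 the adjusted p of Erbb4 was 0.000236, and without Snhg11-ASO replicate 1, 2 or 3 in turn it was 2.0e-05, 0.0008 and 0.00593. Over all 20 alternatives to the edgeR test it ranged from 1.96e-05 to 0.951, and the 4 that called Erbb4 were all DESeq2 fits. In bulk tissue, fewer cells that express Erbb4 and less Erbb4 RNA per cell cannot be told apart.

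Interneuron markers were lower beside Erbb4. Of 14 such genes 12 had a lower and 2 a higher log2 fold change, with a median of -0.27, whereas 48.3% of all genes tested were lower. An unadjusted p under 0.05 was reached by 5 of the 14, all lower, against 8.11% of all genes tested. Among them were the neuropeptide genes Sst and Vip, with Reln and Nxph1. The 2 higher markers, Npy (log2 fold change 0.24) and Cck (0.04), are neuropeptide genes as well. Vip was at 13.7, 11.4 and 23.3 CPM with Control-ASO and at 10.4, 10.1 and 10.6 CPM with Snhg11-ASO. None of the 14 had an adjusted p under 0.05 in edgeR. In sum the 14 genes ranged from 1011 to 1161 CPM with Control-ASO and from 816 to 950 CPM with Snhg11-ASO, 82.9% of the Control-ASO mean, while Erbb4 stood at 56.8%. Gad1, which makes GABA, was counted at 219, 187 and 192 CPM with Control-ASO and at 179, 162 and 177 CPM with Snhg11-ASO. For Gad2, the other GABA-synthesis gene, the values 123, 122 and 103 CPM overlapped with 107, 102 and 113 CPM. No interneuron marker was at 0 in any sample, and the part of these cells in the Erbb4 difference was not tested.

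Reads inside the Erbb4 introns gave a separate view of the locus. The annotation places 8 small genes within Erbb4 introns on the same strand, with no exon shared, so their counts were never part of Erbb4's. Together they held 266, 211 and 260 read pairs with Control-ASO and 177, 231 and 237 with Snhg11-ASO. Scaled to each library, these were 9.03, 6.27 and 7.71 against 4.64, 5.52 and 5.42 CPM. Again the groups did not overlap, and the difference had the direction of Erbb4 itself (exact permutation test, p = 0.1). Of the 7 small genes tested singly, 3 had no overlap between the groups, all lower (Gm16076, Gm37100 and Gm37769), against 15.4% of all genes tested. The other 4, Gm15670, Gm19335, Gm37735 and Gm37061, overlapped. Gm37769 was barely apart, at 2.38 CPM in the lowest Control-ASO sample and 2.32 CPM in the highest Snhg11-ASO sample. Gm37100 held only 5 to 20 read pairs per sample. Gm15670 was highest in Snhg11-ASO replicate 1. Gm16076, annotated as sense intronic, was at 1.67, 1.43 and 1.48 CPM with Control-ASO and at 0.787, 1.20 and 0.779 CPM with Snhg11-ASO. Whether these reads come from unspliced Erbb4 RNA or from transcripts of their own cannot be told apart from counts.

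Erbb2 (ENSMUSG00000062312; chromosome 11, plus strand, 98412470 to 98437716) was the only member that lay higher with no overlap. Control-ASO replicates 1, 2 and 3 stood at 2.11, 2.02 and 1.99 CPM, and Snhg11-ASO replicates 1, 2 and 3 at 3.99, 2.87 and 2.34 CPM. The Control-ASO samples lay close together and the Snhg11-ASO samples spread widely, replicate 1 being far above the others. The means of Erbb2 were 2.04 ± 0.0613 and 3.06 ± 0.842 CPM (SD, n = 3 per group; exact permutation test, p = 0.1), with a log2 fold change of 0.59 (SE 0.26, unadjusted p = 0.0571, adjusted p = 0.621 in edgeR). Without Snhg11-ASO replicate 1 the log2 fold change was 0.35. Only 62 to 152 read pairs per sample stand behind these values. The neighbouring gene Mien1, which shares 9 bp of exon with Erbb2 on the opposite strand, had a log2 fold change of -0.12.

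Erbb3 (ENSMUSG00000018166; chromosome 10, minus strand, 128567523 to 128589652) was counted at 9.69, 14.5 and 11.6 CPM with Control-ASO and at 11.2, 17 and 15.3 CPM with Snhg11-ASO. Replicate 1 was the lowest and replicate 2 the highest in either group, and the groups overlapped. Its means were 11.9 ± 2.43 and 14.5 ± 2.95 CPM (SD, n = 3 per group; exact permutation test, p = 0.3), with a log2 fold change of 0.28 (SE 0.21, adjusted p = 0.765 in edgeR). Without a single sample in turn this ranged from 0.14, without Control-ASO replicate 1, to 0.44, without Control-ASO replicate 2. It was 0.43 (unadjusted p = 0.045) without Snhg11-ASO replicate 1 and 0.15 without Snhg11-ASO replicate 2. With the replicate numbers as a block, Erbb3 had an SE of 0.13, an unadjusted p of 0.0863 and an adjusted p of 0.634 in edgeR. Erbb3 was higher in all 3 comparisons of same-numbered samples, although it is not known that the numbers pair samples. Genes of myelinating oligodendrocytes, 12 in all, ordered the samples in a like way, at 1789, 3274 and 2193 CPM in sum with Control-ASO and 1790, 4056 and 3213 CPM with Snhg11-ASO. None of the 12 had an unadjusted p under 0.05, and 11 of them had a higher log2 fold change, with a median of 0.27. Single libraries decided this. With Snhg11-ASO replicate 1 left out, their median stood at 0.61 and 8 of the 12 had an unadjusted p under 0.05. Over all genes, 2011 of 20226 tested had such a p in that edgeR fit. The 12 genes mark a single cell type, so they are not independent results. Without Control-ASO replicate 2 their median was 0.54 with 2 such genes, and without Snhg11-ASO replicate 2 it was -0.08 with 7 of 12 lower. Without Control-ASO replicate 1 or Snhg11-ASO replicate 3 it was 0.10 and 0.12. Precursor genes of this lineage, 9 in all, summed to 494 to 606 CPM against 453 to 595 CPM. Of 6 Schwann cell genes 3 were tested, all with a higher log2 fold change (median 0.50) and an unadjusted p over 0.05. Among them Cdh19 was at 10.5 to 15.3 CPM with Control-ASO and at 13.8 to 17.8 CPM with Snhg11-ASO, and Prx at 0.272 to 0.505 and 0.573 to 0.944 CPM, with no overlap. The defining Schwann cell genes Pmp2 and Foxd3 had 0 to 1 counts in any sample. The part of the oligodendrocytes in the Erbb3 values was not tested.

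To set the genes against each other, CPM were divided by the length of each gene's merged exons in kb. With Control-ASO, Erbb4 at 10.1 ± 1.19 and Nrg3 at 9.47 ± 0.495 per kb overlapped at the top (SD, n = 3). Next came Erbb3 at 1.98 ± 0.403 and Nrg2 at 1.68 ± 0.0878 per kb, which also overlapped, then Nrg1 at 1.05 ± 0.175 and Erbb2 at 0.391 ± 0.0118, each apart from its neighbours. With Snhg11-ASO the order at the top was Nrg3 at 6.90 ± 1.05 and Erbb4 at 5.76 ± 0.755 per kb, again with overlap. Erbb3 at 2.41 and Nrg2 at 1.56 per kb no longer overlapped. Nrg1 at 0.800 and Erbb2 at 0.588 now did. These levels pool all transcripts of a gene, and the merged exon length is at least as long as any single transcript.

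Erbb4 made up a smaller share of the receptor pool after Snhg11-ASO. Summed per kb of exon, the receptors gave 12.5 ± 0.801 with Control-ASO and 8.76 ± 1.12 with Snhg11-ASO, and the neuregulins 12.2 ± 0.409 and 9.26 ± 1.08 (SD, n = 3). Neither sum overlapped between the groups (exact permutation test, p = 0.1 for each). Erbb4 made up 84.9, 76.1 and 81.5% of the receptor sum with Control-ASO and 65.2, 65.5 and 66.6% with Snhg11-ASO. The Snhg11-ASO samples thus lay within a narrow band below all controls, 15.1 percentage points lower in the mean (exact permutation test, p = 0.1).

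The shares of Erbb3 and Erbb2 were higher within this smaller sum. Erbb3 held 12.1, 20.6 and 15.4% with Control-ASO and 24.7, 28.9 and 28.4% with Snhg11-ASO, higher by 11.3 percentage points with no overlap (exact permutation test, p = 0.1). Erbb2 held 3.04, 3.31 and 3.05% against 10.1, 5.65 and 5.0%, higher by 3.79 percentage points, and by 2.19 without Snhg11-ASO replicate 1. Shares of a sum move against each other by construction. Among the ligands Nrg3 held 77.6 ± 1.46% and 74.4 ± 3.31% (exact permutation test, p = 0.3). Its difference of -3.27 percentage points was -4.94 without Snhg11-ASO replicate 1 and -1.63 without Snhg11-ASO replicate 3. Nrg1 held 8.63 ± 1.71% and 8.74 ± 1.48% (exact permutation test, p = 0.9). The share of Nrg2 was 13.7 ± 0.291% and 16.9 ± 1.84%, with no overlap (exact permutation test, p = 0.1; SD, n = 3 per group for all 3). Over the 15 permutation tests of levels, shares and sums described here, the adjusted p was 0.15 wherever the raw p was 0.1.

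**Figure D2:**
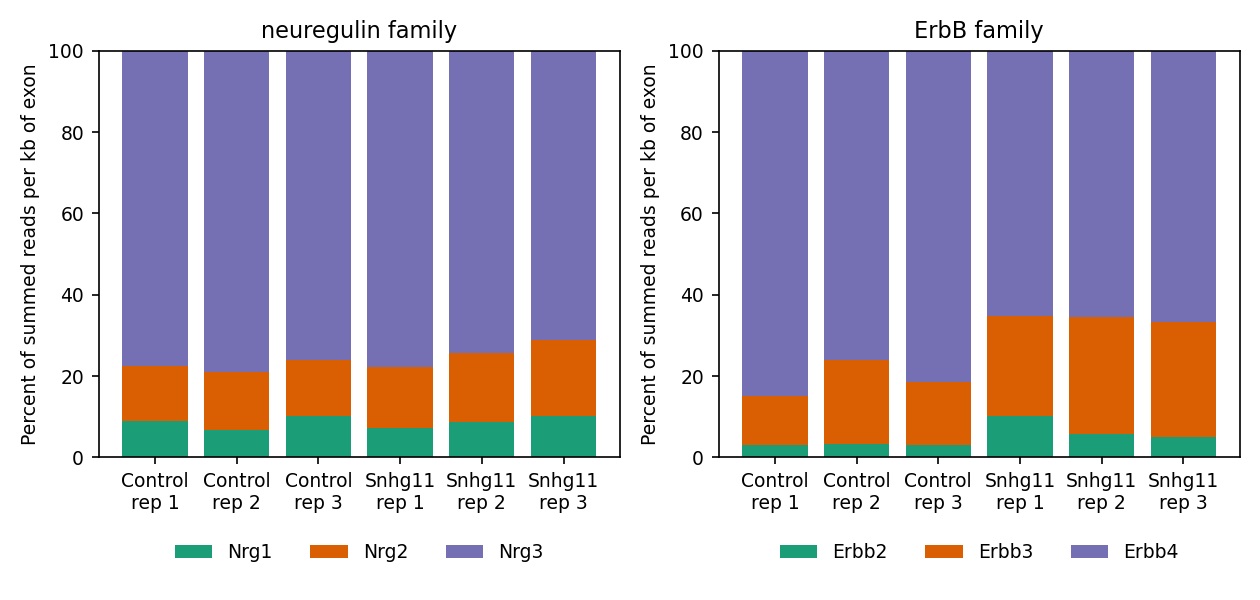
Share of each gene in the summed level of its family per sample, in percent of read pairs per kb of exon (stacked bars from 0), for the neuregulins and the ErbB receptors. Erbb4 makes up 76.1 to 84.9% of the receptor sum in the Control-ASO samples and 65.2 to 66.6% in the Snhg11-ASO samples.

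The members differ widely in length. Nrg1, Nrg3 and Erbb4 each span over 1000 kb, Nrg2 spans 180 kb, and Erbb2 and Erbb3 span 25.2 and 22.1 kb. The 3 genes over 1000 kb all had a negative log2 fold change and the 2 short ones a positive one. Of the 57 tested genes of 1000 kb or more, 54 (94.7%) were lower in Snhg11-ASO samples, with a median log2 fold change of -0.48, against 48.3% and 0.01 over all genes tested. Counted from the most negative, Erbb4 ranked 13, Nrg3 33 and Nrg1 36 among these 57, so that Nrg3 and Nrg1 lay on the less negative side of their median.

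Fitting the trend of expression with genomic span in each sample, and removing it, moved the long members more than the short ones. Erbb4 went from -0.82 to -0.42 (adjusted p = 0.608 in edgeR), Nrg3 from -0.46 to -0.06 and Nrg1 from -0.39 to 0.0004, while the median of the 57 long genes became -0.06. Among the short members Erbb2 went from 0.59 to 0.53 and Erbb3 from 0.28 to 0.22. Erbb4 thus stayed below the long genes as a group, although not past the threshold. The correction takes out any difference shared by long genes, whatever its origin, and the part of gene length in these differences was not tested otherwise.

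**Figure D3:**
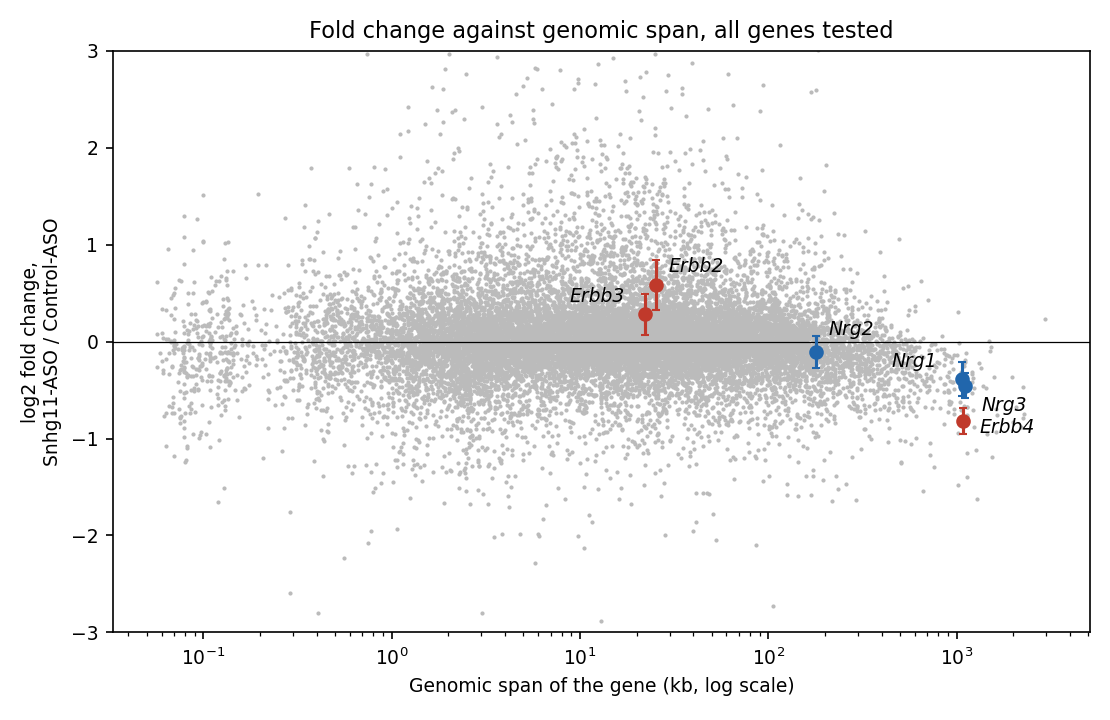
Log2 fold change of Snhg11-ASO over Control-ASO for the genes tested (vertical axis) against genomic span in kb (horizontal log axis), with the 6 members named and their SE drawn. Nrg1, Nrg3 and Erbb4 sit among the longest genes, of which 54 of 57 lie below 0.

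**Figure D4:**
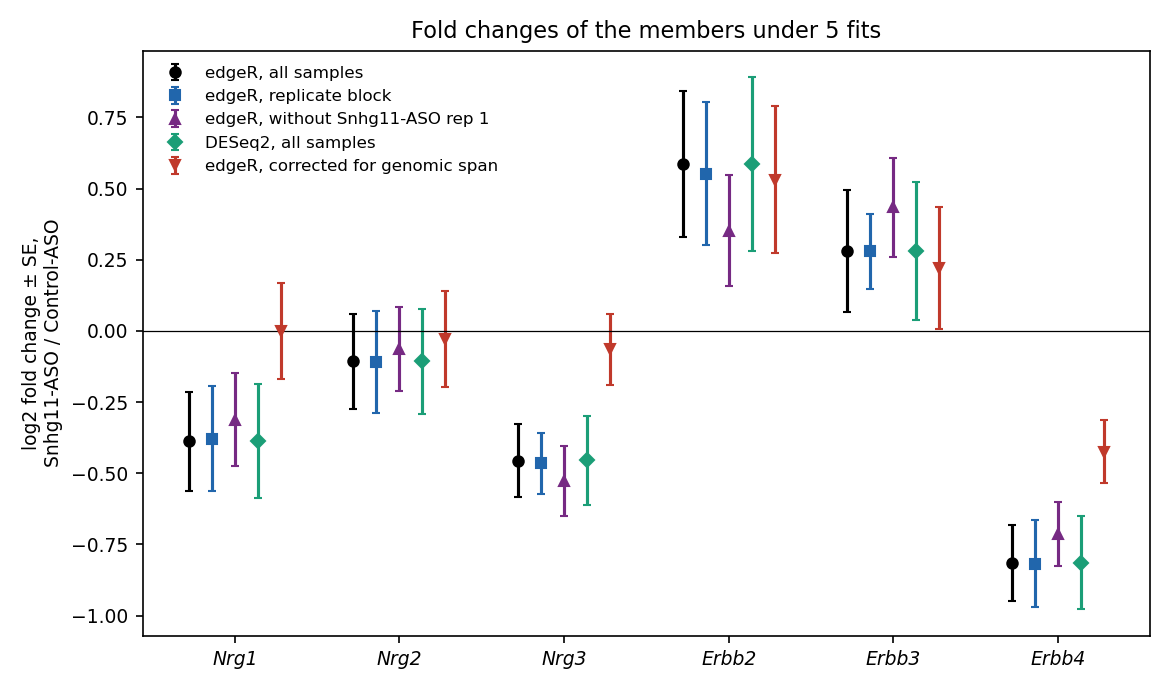
Log2 fold change of each member with its SE under 5 fits, which are edgeR with all samples, edgeR with the replicate block, edgeR without Snhg11-ASO replicate 1, DESeq2, and edgeR after the span correction. Erbb4 lies below 0 in all 5, from -0.90 to -0.42 over all alternatives, and the span correction brings Nrg3 and Nrg1 to -0.06 and 0.0004.

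Genes that act with the neuregulins and their receptors had fold changes in both directions. Of 73 such genes 70 were tested, of which 25 had a lower and 45 a higher log2 fold change (median 0.03). No gene of them had an adjusted p under 0.05 in edgeR, 1 lower and 5 higher genes had an unadjusted p under 0.05, and DESeq2 called 1, Erbin. Taken over both directions, the 6 genes with such a p were near the background of 8.11% of all genes tested. The DESeq2 call was near its background of 1.29%. By direction the background of the unadjusted p was 4.43% lower and 3.68% higher. On these small counts the higher genes lay above their background and the lower gene below its own. Among all genes tested 48.3% had a lower log2 fold change, a larger part than among the 70. The ranges of the groups did not overlap in 15 of the 70, with 15.4% of all genes tested as the background.

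Further ErbB ligands and the EGF receptor made a list with 6 genes tested, 5 ligands and Egfr, while Ereg, Areg and Epgn had 0 to 9 counts per sample. Tgfa, a ligand of the EGF receptor, lay at 22.2, 28.3 and 24.4 CPM with Control-ASO and at 30.1, 32.6 and 32.4 CPM with Snhg11-ASO (log2 fold change 0.35, unadjusted p = 0.0245). Egfr itself was at 27.2, 27.0 and 29.5 CPM against 26.8, 23.5 and 23.0 CPM, lower with no overlap (log2 fold change -0.19, unadjusted p = 0.128). Hbegf was at 66.5 CPM in Snhg11-ASO replicate 1 and at 5.28 to 7.85 CPM in the other 5 samples. Nrg4, a further ligand of ErbB4, was at 1.84 CPM in Snhg11-ASO replicate 1 and at 0.416 to 0.646 CPM elsewhere. The median of the 6 genes was 0.45 with all samples and 0.13 without that replicate.

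The enzymes that cut neuregulin precursors had log2 fold changes from -0.08 to 0.27. Bace1, the beta-secretase that cleaves Nrg1, had a log2 fold change of 0.01 (SE 0.08), Adam10, a membrane sheddase, 0.01 (SE 0.09), and Nrdc, which enhances shedding, -0.05 (SE 0.08). Adam17, the other main sheddase, was at 24.1, 22.8 and 21.9 CPM with Control-ASO and at 28.6, 25.6 and 25.9 CPM with Snhg11-ASO, higher with no overlap (log2 fold change 0.22, unadjusted p = 0.0731). Of the 9 genes 3 were lower and 6 higher, and none had an unadjusted p under 0.05.

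Among 9 genes that anchor or restrain ErbB receptors, 8 had a higher log2 fold change and 1 a lower one (median 0.34, and 0.07 without Snhg11-ASO replicate 1). Erbin, a scaffold that binds ErbB2 at the membrane, was at 136, 179 and 155 CPM with Control-ASO and at 254, 226 and 212 CPM with Snhg11-ASO. Its groups did not overlap, and the log2 fold change was 0.56 (SE 0.13, unadjusted p = 0.0034, adjusted p = 0.443 in edgeR and 0.0261 in DESeq2). DESeq2 also called it without Snhg11-ASO replicate 1, but not without Snhg11-ASO replicate 2 or 3. Lrig1, which promotes ErbB degradation, had a log2 fold change of 0.40 (unadjusted p = 0.013), and the phosphatase gene Ptpn12 one of 0.43 (unadjusted p = 0.0373). Ptpn12 was at 46.1 CPM in Snhg11-ASO replicate 1, at 31.9 and 32.8 CPM in replicates 2 and 3, and at 24.9 to 29.1 CPM with Control-ASO. Errfi1, an inducible inhibitor of ErbB kinases, was at 140 CPM in Snhg11-ASO replicate 1 alone, and at 29.4 to 38.4 CPM in the other 5 samples. Dlg4, the postsynaptic scaffold PSD-95 that binds ErbB4, had a log2 fold change of 0.09 (SE 0.11).

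Downstream, the 46 adaptor and effector genes had 20 lower and 26 higher log2 fold changes, with a median of 0.01. Pak1, a kinase of actin remodelling, was at 204, 218 and 249 CPM with Control-ASO and at 177, 183 and 157 CPM with Snhg11-ASO (log2 fold change -0.38, unadjusted p = 0.0108). Nras, the small GTPase of the MAP kinase route, was at 40.5, 50.1 and 42.8 CPM against 60.8, 52.5 and 56.0 CPM (log2 fold change 0.34, unadjusted p = 0.0197). No other gene of the 46 had an unadjusted p under 0.05.

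**Figure D5:**
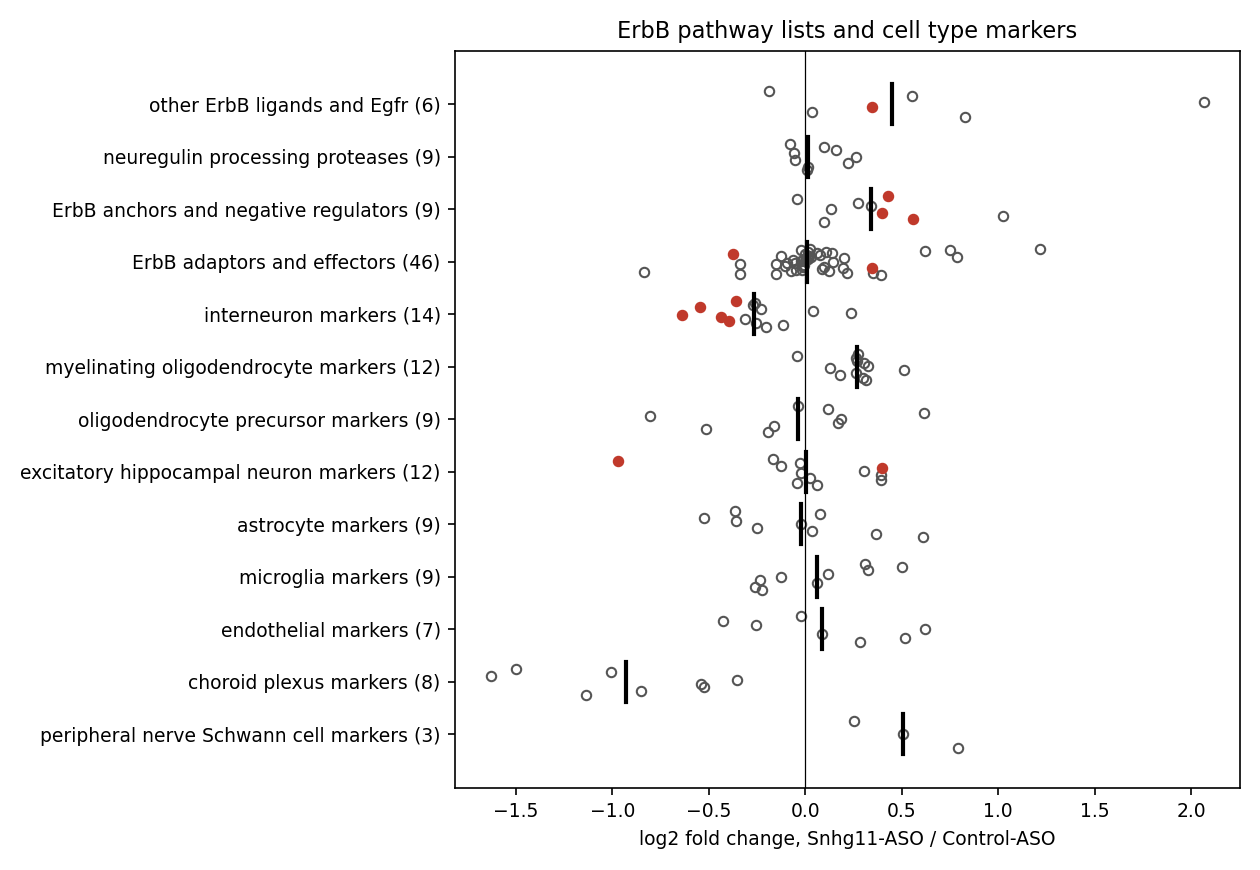
Log2 fold change of Snhg11-ASO over Control-ASO for every tested gene (points) of the pathway and marker lists, with black bars at the medians and filled red points for an unadjusted p under 0.05. Interneuron markers have a median of -0.27 with 12 of 14 lower, and the adaptors and effectors a median of 0.01.

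The genes whose log2 CPM followed each member most closely over the 6 samples were read off by Pearson's r among 16286 genes. Erbb4 was followed most closely by Pip5kl1 (r = 0.996) and Pak3 (r = 0.994), Nrg3 by H2afy (r = 0.995), Zzef1 and Mvb12b, and Nrg1 by Ccdc136 (r = 0.993), Dcx and Necab1. For Nrg2 the closest were Col22a1, Gm37661 and Ralgps1, for Erbb2 Gm37645, Heatr1 and Trmt6, and for Erbb3 Samd1, Coro1b and Gm13293. With 6 samples such values are common, since 78 to 838 genes per member had an r over 0.9, and the points share libraries and groups. Dcx marks newborn neurons of the DG, and Pak3 is a kinase of the same family as Pak1. Between members, Erbb4 had an r of 0.88 with Nrg1, 0.74 with Nrg3 and -0.85 with Erbb2.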

How the data were processed

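Total RNA of the dorsal hippocampus of 6 mice was depleted of ribosomal RNA and sequenced in pairs from stranded libraries. The authors aligned reads to mm10 with STAR 2.5.2a and deposited raw counts per gene for each sample, without normalization or pooling. Rsubread is the counting tool named in the paper, whereas the deposited layout is that of STAR. The reverse-strand column was used, which held 96.2 to 96.8% of strand-resolved counts. Summary lines (43.5 to 51.4% of pairs) that name no gene were left out, so pairs on several places or genes are not counted. Counts on the strand opposite to a member were 0 to 21 per sample.

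Genes were filtered with filterByExpr (minimum count 10), scaled with TMM factors (0.982 to 1.02) and tested with edgeR 4.0.16 (quasi-likelihood, Benjamini-Hochberg over 19969 genes, threshold 0.05; R 4.3.3). The biological coefficient of variation was 0.266. The SE of a log2 fold change is its size divided by the square root of F. DESeq2 1.42.0 was the main alternative, with 2003 adjusted p left as NA. Scripts were tested on simulated data. Positions come from GENCODE M21 on GRCm38 (55141 of 55401 identifiers matched) and promoters from RefSeq.

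The members and lists were chosen with earlier results of these data known. General knowledge was the source of the lists. Named genes are the members, Snhg11, the ligands, proteases, anchors and regulators, other pathway genes at an unadjusted p under 0.05, markers, genes overlapping a member and the 3 genes most like each member (mean of at least 1 CPM). A few genes under this rule are not reported here. Pathway genes were tested with all other genes, and no p was adjusted over a list alone. Deviations of same-numbered samples had an r of 0.297, 0.179 and 0.103 for replicates 1, 2 and 3. The highest r between unlike numbers was 0.188, for Control-ASO replicate 2 and Snhg11-ASO replicate 3, above the values of replicates 2 and 3. These values cannot decide whether replicate numbers pair samples, and no label says what a number marks. The replicate block was therefore run as an alternative only.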

Additional observations from a re-analysis of the deposited data

How the results depend on the processing

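Alternatives to the edgeR test were DESeq2, limma-voom, other scaling factors, counts of both strands, other filters on low counts, the replicate block, the span correction alone and with the block, and leaving out each sample. Medians of the marker and regulator lists were rerun by alternatives chosen after seeing the data. Over all genes, the 0 calls became 258 in DESeq2, 0 to 2 with a sample left out (2 without Snhg11-ASO replicate 1), and 347, 275 and 223 in DESeq2 without Snhg11-ASO replicates 1, 2 and 3. At Erbb4, DESeq2 passed the threshold at a log2 fold change of -0.81, and at -0.72, -0.90 and -0.84 without Snhg11-ASO replicates 1, 2 and 3. By contrast, edgeR with a sample left out gave -0.90 to -0.71 and passed it in no case. Nrg3 passed in DESeq2 without Snhg11-ASO replicate 1 (-0.53). The pathway genes had 1 call in DESeq2 and 1 in DESeq2 without Snhg11-ASO replicate 1, but 0 without Snhg11-ASO replicate 2 or 3. Nrg1 turned to 0.0004 after the span correction and to 0.0102 with the block added, and the difference in its share of the neuregulin sum ranged from -0.79 (without Control-ASO replicate 2) to 0.92 percentage points with a sample left out, being -0.66 without Snhg11-ASO replicate 3. The median of interneuron markers ranged from -0.35 to -0.17 with a sample left out. Nrg2, Nrg3 and Erbb4 were lower, and Erbb2 and Erbb3 higher, in all 20 alternatives. Why these values moved was not tested.

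With the replicate block, 0 genes were called over all genes, Erbb4 stood at -0.82 (adjusted p = 0.426 in edgeR), and no call of a member changed. With 3 mice per group and 62 to 152 read pairs, the values at Erbb2 carry the largest counting error of the 6 genes.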
